A study of Mus musculus with 12 samples.

Results

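Iron handling was followed in 12 pieces of mouse spleen through 10 genes picked by symbol from the 32121 genes of the count table. Of these 5 act in uptake (Tfrc, Tfr2, Slc11a2, Steap3 and Slc25a37), and 5 act in recycling, export and storage (Slc11a1, Slc40a1, Hmox1, Fth1 and Ftl1). All 10 passed the filter on low counts and were among the 17328 genes tested between genotypes. The animals called SB 1 to 3 were labelled VEC-Cre;SB Transposase; onc2, where SB stands for Sleeping Beauty. VEC-Cre is a Cre recombinase that the series title ties to the endothelium, the transposase is an enzyme that moves transposons about the genome, and onc2 is the mutagenic transposon. Controls, called WT animals 1 to 3, were labelled wild type, and both groups were labelled C57BL/6, with no age or treatment given in the labels. Each of the 6 animals gave 2 spleen pieces, and the stated aim of the series was to read from them how clonal a whole spleen is. Poly-A RNA was sequenced without strand, giving 14320833 to 22031026 counts per library. Levels below are CPM, counts scaled to a common library size with TMM factors.

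Developing red cells take up iron as transferrin through the transferrin receptor, reduce it in the endosome, carry it to the cytosol and pass it to the mitochondrion, where it enters heme. Macrophages of the splenic red pulp engulf old red cells, open the heme ring, and return the iron to plasma through ferroportin or keep it in ferritin. Both arms are tuned after transcription by iron regulatory proteins, which bind a hairpin in the mRNA called the iron responsive element. In an iron-poor cell this binding blocks translation from hairpins in the 5′ UTR and protects the mRNA with hairpins in the 3′ UTR. RNA levels of ferritin and ferroportin therefore need not follow their protein.

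The hairpins are shown because they lie at opposite ends of the mRNA in the receptor for uptake and in the genes of storage and export. A script searched UTRs of the GENCODE M21 transcripts for a C, 5 bases, the loop CAGTGN, and 5 bases able to pair with the first 5, with G-U pairs allowed. It matched 4 of the 10 genes, against 0.731% of 21901 protein-coding genes (0.142% in a 5′ UTR and 0.589% in a 3′ UTR). The pattern is that of an element already tied above to both arms, so these shares describe its rarity and are not a test. Capitals mark the loop, sequences run along the mRNA, and positions are on GRCm38. The storage and export genes held it before the coding sequence, Fth1 at chr19:9982732-9982761 on the plus strand, Ftl1 at chr7:45459778-45459807 on the minus strand, and Slc40a1 at chr1:45925464-45925493 on the minus strand. Tfrc held 4 matches after the coding sequence on the plus strand, at chr16:32631219-32631248, chr16:32631598-32631627, chr16:32631663-32631692 and chr16:32631710-32631739. A match is a run of letters and not a measured binding site. The pattern is strict, since it allows no other loop and no unpaired base among the 5 pairs. A gene without a match may therefore still hold such a hairpin.
Fth1: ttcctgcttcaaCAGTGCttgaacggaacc
Ftl1: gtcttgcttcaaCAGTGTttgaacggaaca
Slc40a1: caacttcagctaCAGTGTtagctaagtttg
Tfrc site 1: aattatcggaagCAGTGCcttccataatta
Tfrc site 2: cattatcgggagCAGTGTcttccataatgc
Tfrc site 3: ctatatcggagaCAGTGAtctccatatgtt
Tfrc site 4: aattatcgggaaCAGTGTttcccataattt

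The SB spleens differed in cell type markers from each other and from the WT spleens, which is given here once for all genes below. The summed level of 18 red pulp macrophage markers was 24592 and 24901 CPM in the pieces of SB animal 2, 1344 to 2010.4 CPM in SB animals 1 and 3, and 2921 to 3700.1 CPM in WT pieces. These markers did not move alike in any SB animal. In SB animal 2 their log2 ratio to the WT mean ran from -0.28 for Hpgd and 0.55 for Spic to 4.63 for Mrc1 and 5.70 for Siglec1. It ran from -4.04 for Lyz2 to 3.21 for Mrc1 in SB animal 1, and from -2.85 for Hpgd to 1.37 for Cd163 in SB animal 3. Lyz2, with a mean of 1596 CPM in WT animals and a ratio of -1.97 in SB animal 3, was the largest part of the WT sum. The summed level of 22 erythroid markers, globins included, was 49389 and 55208 CPM in SB animal 2, 5435 to 7904 CPM in SB animals 1 and 3, and 16869.8 to 61944 CPM in WT pieces. That sum is mostly globin, and the other 19 markers together gave 3030 and 2364 CPM in SB animal 1, 15390.3 and 15592 CPM in SB animal 2, 7104 and 7105 CPM in SB animal 3, and 845 to 4798 CPM in WT pieces. Without globins SB animals 2 and 3 therefore lay above all WT pieces and SB animal 1 within their range. None of these markers was at 0 in any library, and Adgre1, which encodes the macrophage antigen F4/80, was as low as 3.01 CPM in SB animal 1. Gata1, a defining transcription factor of red cells, stood at 66.9 to 371 CPM in SB pieces and 12.3 to 61.2 CPM in WT pieces. Other cell types moved with genotype. B cell markers summed to 78.3 to 232 CPM in SB and 8977 to 11715 CPM in WT pieces, with 12 of 12 lower, and T cell markers to 31.6 to 459.9 CPM in SB and 1102 to 1471 CPM in WT pieces, with 8 of 12 lower, beside 9.1% of all genes. Neutrophil and promyelocyte markers summed to 1225 to 3016 CPM in SB and 87.1 to 479 CPM in WT pieces, with 6 of 18 higher, and megakaryocyte markers to 1417 to 6219.5 CPM in SB and 299 to 967 CPM in WT pieces, with 2 of 12 higher. Of 20 proliferation genes 16 rose, beside 7.99% of all genes, and all 20 had positive log2 differences, as had 9580 of 17328 genes. Xist, the RNA of the inactive X chromosome, stood at 951 CPM or more in SB animals 1 and 2 and at 3.45 CPM or less in SB animal 3 and the WT animals, so sex was unequal between genotypes. The part of these differences in the results on iron genes was not tested. In these bulk samples fewer cells of a type and less RNA per cell cannot be told apart.

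The comparison of SB with WT spleens asked which iron genes differ with genotype. Of the 10 genes 2 rose in SB, the transferrin receptors Tfrc and Tfr2, and 8 did not pass (edgeR quasi-likelihood test on counts summed per animal, Benjamini-Hochberg adjusted p under 0.05 over all genes). Among all genes tested 17.1% passed in either direction, 7.99% were higher and 9.1% lower, so 2 of 10 is near the background. The median log2 difference was 2.16 over the 5 uptake genes and 0.28 over the 5 recycling, export and storage genes, against 0.11 over all genes. The uptake values ran from 0.53 for Slc25a37 to 3.93 for Tfr2, and the others from 0.12 for Hmox1 to 2.10 for Slc11a1. The median of 0.28 is the value of Ftl1, whose counts are uncertain, as given below. Without SB animal 2 the medians were 1.73 for uptake and -0.77 for recycling, export and storage, against 0.05 over all genes, so the direction of the second depends on that animal. Every recycling and storage gene was highest in SB animal 2.

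**Figure D1:**
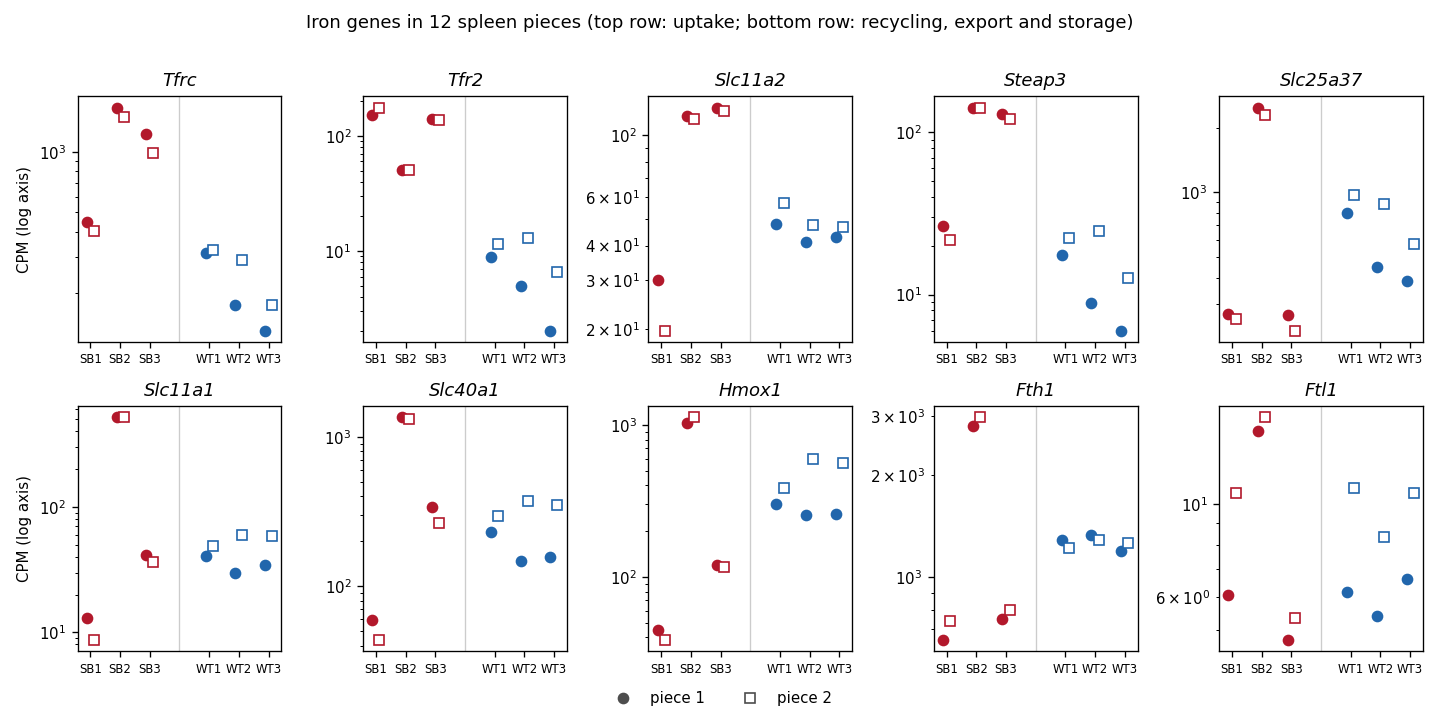
CPM of the 10 iron genes on log axes in each of 12 pieces, SB animals on the left and WT animals on the right of each panel, with filled circles for piece 1 and open squares for piece 2. Tfrc and Tfr2 are higher in all 6 SB pieces than in all 6 WT pieces, and SB animal 2 holds the highest values of Slc25a37, Slc11a1, Slc40a1, Hmox1, Fth1 and Ftl1.

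Tfrc encodes transferrin receptor 1, the main route of iron into erythroid precursors (ENSMUSG00000022797, chromosome 16, 32608920 to 32632794). Its level in pieces 1 and 2 was 447 and 403 CPM in SB animal 1, 1654 and 1488 CPM in SB animal 2, and 1228 and 984 CPM in SB animal 3. In WT animals 1, 2 and 3 the pieces held 314 and 326 CPM, 175 and 290.3 CPM, and 130.1 and 175 CPM. The groups did not overlap, which held with SB above for 13% of all genes, and SB animal 1 lay nearest to WT. Means were 1031 ± 577 CPM in SB and 235 ± 86.2 CPM in WT animals (SD, n = 3 each), a log2 difference of 2.16 (SE 0.55, edgeR adjusted p = 0.0473). The call was lost without SB animal 2 (edgeR adjusted p = 0.0580), without SB animal 3 (edgeR adjusted p = 0.0883), and without WT animal 1, 2 or 3 (edgeR adjusted p = 0.125, 0.177 and 0.181), while the log2 difference stayed between 1.73 and 2.53. In that order, these fits called 34.4%, 17.2%, 2.22%, 1.4% and 2.09% of all genes, beside 17.1% with all animals.

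Tfr2 encodes transferrin receptor 2, a sensor of transferrin-bound iron that in erythroid cells partners the erythropoietin receptor (ENSMUSG00000029716, chromosome 5, 137569840 to 137587481). Pieces 1 and 2 held 151 and 176 CPM in SB animal 1, 50.8 and 50.7 CPM in SB animal 2, and 140.3 and 136 CPM in SB animal 3, against 2.03 to 13.03 CPM in the 6 WT pieces. Among the SB animals it was lowest in SB animal 2, as no other gene of the 10 was. Means were 116 ± 57.6 CPM in SB and 7.83 ± 3.34 CPM in WT animals, a log2 difference of 3.93 (SE 0.59, edgeR adjusted p = 0.0125). Leaving out WT animal 1, 2 or 3 ended the call (edgeR adjusted p = 0.0600, 0.0752 and 0.0617), and the log2 difference stayed between 3.60 and 4.29. Those fits called 2.22%, 1.4% and 2.09% of all genes, beside 17.1% with all animals.

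Steap3 encodes the endosomal ferrireductase that turns ferric into ferrous iron in red cell precursors (ENSMUSG00000026389, chromosome 1, 120190757 to 120272705). Its level per piece was 26.4 and 21.9 CPM in SB animal 1, 142 and 142 CPM in SB animal 2, and 130.0 and 120.5 CPM in SB animal 3, against 5.99 to 24.6 CPM in WT pieces. Animals did not overlap by their summed counts, but 1 piece of SB animal 1 fell within the WT range. The log2 difference of 2.69 (SE 0.71) did not pass (edgeR adjusted p = 0.0524). It passed with edgeR's bias-adjusted quasi-likelihood fit, chosen after seeing the data (adjusted p = 0.0475), with DESeq2 (adjusted p = 0.00105), from piece 1 alone (edgeR adjusted p = 0.0377), and without SB animal 1 (edgeR adjusted p = 0.0110). It did not pass with limma-voom (adjusted p = 0.124), with no filter on low counts (edgeR adjusted p = 0.0738), from piece 2 alone (edgeR adjusted p = 0.0808), or in the other 5 fits that left out an animal (edgeR adjusted p from 0.0731 to 0.189). In the fits without a WT animal 1.4% to 2.22% of all genes passed.

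Slc11a2 encodes DMT1, which moves ferrous iron out of the endosome (ENSMUSG00000023030, chromosome 15, 100387898 to 100425072). Its level was 30.1 and 19.8 CPM in SB animal 1, 117 and 115 CPM in SB animal 2, and 126 and 122 CPM in SB animal 3, against 41.1 to 57.0 CPM in WT pieces. SB animal 1 lay below every WT piece and the other two lay above, and the log2 difference was 0.93 (SE 0.57, edgeR adjusted p = 0.297). Without SB animal 1 the log2 difference was 1.37 (edgeR adjusted p = 0.00859).

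Slc25a37 encodes mitoferrin 1, the carrier that brings iron into the mitochondria of red cell precursors (ENSMUSG00000034248, chromosome 14, 69241848 to 69285112). Its pieces held 271 and 256 CPM in SB animal 1, 2482 and 2279 CPM in SB animal 2, and 266 and 227 CPM in SB animal 3, against 387 to 974 CPM in WT pieces. SB animals 1 and 3 lay below all WT pieces and SB animal 2 above them, with a log2 difference of 0.53 (SE 0.95, edgeR adjusted p = 0.727). Without SB animal 2 the direction turned, to a log2 difference of -1.39 that passed (edgeR adjusted p = 0.0271). It was thus the uptake gene that did not follow Tfrc in SB animal 3. Other annotated genes, some of them antisense, overlap this gene and 8.07% of its 50-base runs occur in other genes, so unstranded reads from them cannot be told apart.

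**Figure D2:**
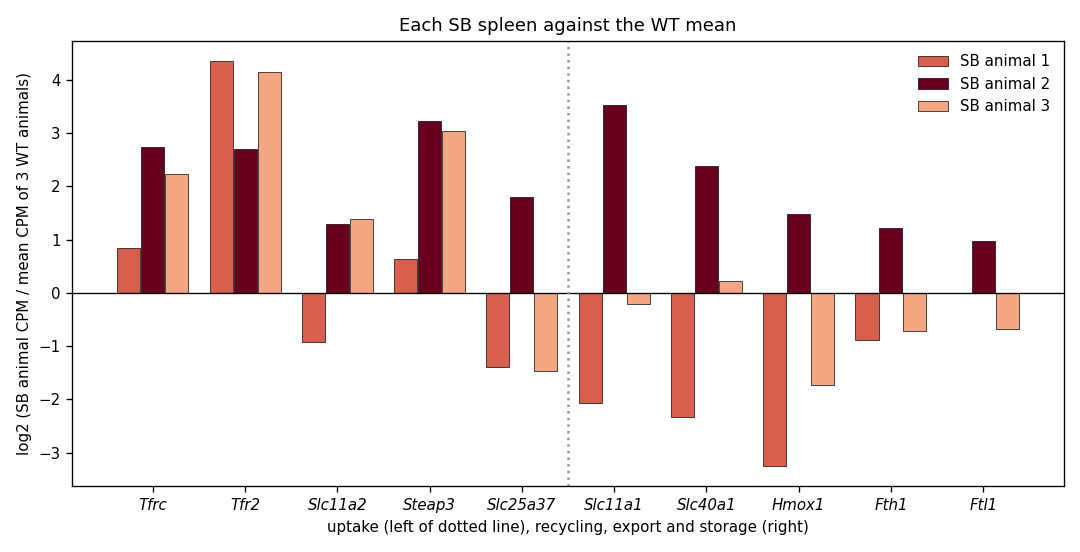
Bars give the log2 ratio of each SB animal's CPM to the mean CPM of the 3 WT animals, for 5 uptake genes on the left and 5 recycling, export and storage genes on the right of the dotted line. SB animal 2 is above the WT mean for all 10 genes, while SB animal 1 ranges from 4.35 for Tfr2 to -3.25 for Hmox1.

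Slc11a1 encodes NRAMP1, which moves metal ions out of the phagosome of macrophages (ENSMUSG00000026177, chromosome 1, 74375195 to 74386062). Levels were 12.995 and 8.66 CPM in SB animal 1, 521 and 519 CPM in SB animal 2, and 41.8 and 36.1 CPM in SB animal 3, against 29.8 to 60.0 CPM in WT pieces. The 3 WT animals, with pieces summed, agreed closely at 45.2 ± 0.151 CPM (SD, n = 3), while SB animals spanned 5.53 on the log2 scale. The log2 difference between genotypes was 2.10 (SE 1.32, edgeR adjusted p = 0.308), and -0.83 without SB animal 2 (edgeR adjusted p = 0.285).

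Slc40a1 encodes ferroportin, the iron exporter that hepcidin removes from the cell surface (ENSMUSG00000025993, chromosome 1, 45908068 to 45926523). Pieces held 59.3 and 43.5 CPM in SB animal 1, 1358 and 1311 CPM in SB animal 2, and 338 and 265 CPM in SB animal 3, against 149 to 375 CPM in WT pieces. SB animal 3 lay within the WT range, with SB animal 1 below it and SB animal 2 above. The log2 difference was 1.16 (SE 1.02, edgeR adjusted p = 0.464), and -0.52 without SB animal 2 (edgeR adjusted p = 0.607).

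Hmox1 encodes heme oxygenase 1, which opens the heme ring and frees its iron (ENSMUSG00000005413, chromosome 8, 75093621 to 75100589). Its RNA level was 44.5 and 38.3 CPM in SB animal 1, 1023 and 1124 CPM in SB animal 2, and 119.7 and 116 CPM in SB animal 3, against 255 to 593 CPM in WT pieces. SB animals 1 and 3 were below all WT pieces and SB animal 2 above them, which left a log2 difference of 0.12 (SE 1.11, edgeR adjusted p = 0.948). The value depended on SB animal 2, without which it was -2.26 (edgeR adjusted p = 0.0264).

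Ferritin, the storage shell, is built from a heavy chain that oxidises iron, encoded by Fth1, and a light chain, encoded by Ftl1. Fth1 (ENSMUSG00000024661, chromosome 19, 9980598 to 9985098) had 650.3 and 742 CPM in SB animal 1, 2807 and 2975 CPM in SB animal 2, and 749 and 796 CPM in SB animal 3, against 1191 to 1332 CPM in WT pieces. SB animals 1 and 3 were again below and SB animal 2 above every WT piece, with a log2 difference of 0.24 (SE 0.60, edgeR adjusted p = 0.811), and -0.77 without SB animal 2 (edgeR adjusted p = 0.0107). Ftl1 (ENSMUSG00000050708, chromosome 7, 45457944 to 45459884) had 4.72 to 16.1 CPM in SB pieces and 5.40 to 10.9 CPM in WT pieces, with a log2 difference of 0.28 (SE 0.46, edgeR adjusted p = 0.699). Its 82 to 317 counts per library are uncertain, because 90.6% of the 50-base runs of its transcripts also occur in other genes, mostly pseudogenes, and reads could be split or lost there.

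Leaving out SB animal 2, 4 of the 10 genes were called, Tfr2 higher and Slc25a37, Hmox1 and Fth1 lower, beside 34.4% of all genes. The marker lists changed with it. Red pulp macrophage markers held 0 called genes of 18 in edgeR with all animals (median log2 difference 1.50), and 0 higher and 4 lower of 18 without SB animal 2 (median -0.62). Erythroid markers held 5 higher of 22 with all animals (median 2.12), and 3 higher and 3 lower without SB animal 2 (median 1.13).

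A test between the 3 SB animals, with the spread between pieces of a spleen as its error, compared these spleens only. All 10 iron genes differed between SB animals (edgeR F test, adjusted p from 1.6e-08 for Fth1 to 0.0119 for Tfr2), beside 70.1% of all genes. Between the 3 WT animals 0 of 10 passed the same edgeR test, beside 0.417% of all genes, and 2 had an unadjusted p under 0.05, Tfrc and Slc25a37. No other tool was run on this comparison. The range between animals on the log2 scale was 5.53 in SB and 0.01 in WT animals for Slc11a1, 4.72 and 0.30 for Hmox1, and 4.70 and 0.15 for Slc40a1. For Tfrc it was 1.90 in SB and 1.10 in WT animals, and for Tfr2 1.64 and 1.26. The median over all genes was 0.87 in SB and 0.21 in WT animals. Slc11a1, Hmox1 and Slc40a1 thus had the 3 largest ranges of the 10 genes among SB animals, and ranges of 0.30 or less among WT animals.

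Levels can be compared between genes per kilobase of exon. In WT animals Fth1 led at 352 to 379 CPM per kilobase, then Hmox1 at 198 to 244 and Slc25a37 at 77.9 to 149.7. Tfrc at 24.2 to 52.1 and Slc40a1 at 26.8 to 29.8 overlapped, as did Steap3 at 1.56 to 3.55 and Tfr2 at 0.933 to 2.39 at the low end. In SB animal 1 Fth1 (196 CPM per kilobase) was followed by Tfrc (67.8), Slc25a37 (43.1) and Tfr2 (36.9), with Hmox1 at 23.4. In SB animal 3 Fth1 (223) was followed by Tfrc (179) and Hmox1 (67.4), and in SB animal 2 the order Fth1 (843), Hmox1 (622), Slc25a37 (395) and Tfrc (253) was that of WT animal 1.

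The ratio of Tfrc to Slc40a1 counts sets a gene of uptake against a gene of export and does not depend on library scaling. These bulk pieces do not show which cells held either RNA. On the log2 scale it was 3.04, 0.23 and 1.87 in SB animals 1, 2 and 3, and 0.27, -0.17 and -0.69 in WT animals 1, 2 and 3. SB animals 1 and 3 lay above all WT animals, and SB animal 2 lay just below WT animal 1. The means were 1.71 ± 1.41 in SB and -0.20 ± 0.48 in WT animals (SD, n = 3 each), a difference of 1.91 that is given without a test. The place of SB animal 2 depends on the genes chosen. Tfrc over Hmox1 was 0.52 there and at most -0.11 in WT animals, and Tfrc over Fth1 was -0.90 and at most -1.96. Steap3 over Slc40a1 was -3.23 in SB animal 2 and at most -3.72 in WT animals. Tfr2 over Slc40a1, at -4.71 in SB animal 2, lay just below WT animal 1 at -4.69.

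Set against cell type markers, the genes fell into different patterns, as differences between a gene's log2 CPM and the mean log2 CPM of the list. Tfrc over the erythroid markers, globins left out, was 2.08, 1.45 and 2.10 in SB animals 1, 2 and 3, and 1.42, 1.53 and 1.94 in WT animals, so the ranges overlapped. Tfr2 over the same markers was 0.70, -3.48 and -0.90 in SB animals 1, 2 and 3 and between -3.47 and -3.08 in WT animals. SB animals 1 and 3 thus held more Tfr2 per erythroid marker RNA than the WT animals, and SB animal 2 did not. Hmox1 over the red pulp macrophage markers was 0.34, 0.73 and 0.87 in SB animals and 2.08 to 2.24 in WT animals. The share of all genes with such a gap was not counted. That gap depends on which markers are averaged. As log2 ratios to the WT mean, Hmox1 stood at -3.25, 1.49 and -1.72 in SB animals 1, 2 and 3. Of the markers, Spic stood at -2.93, 0.55 and -1.89 and Siglec1 at -1.67, 5.70 and -0.19. Slc40a1 over the macrophage markers was 0.66, 1.03 and 2.22 in SB animals 1, 2 and 3 and 1.47 to 1.71 in WT animals. Slc11a1 over the macrophage markers was -1.53, -0.33 and -0.72 in SB animals 1, 2 and 3 and between -0.99 and -0.85 in WT animals. These ratios are descriptions and were not tested.

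**Figure D3:**
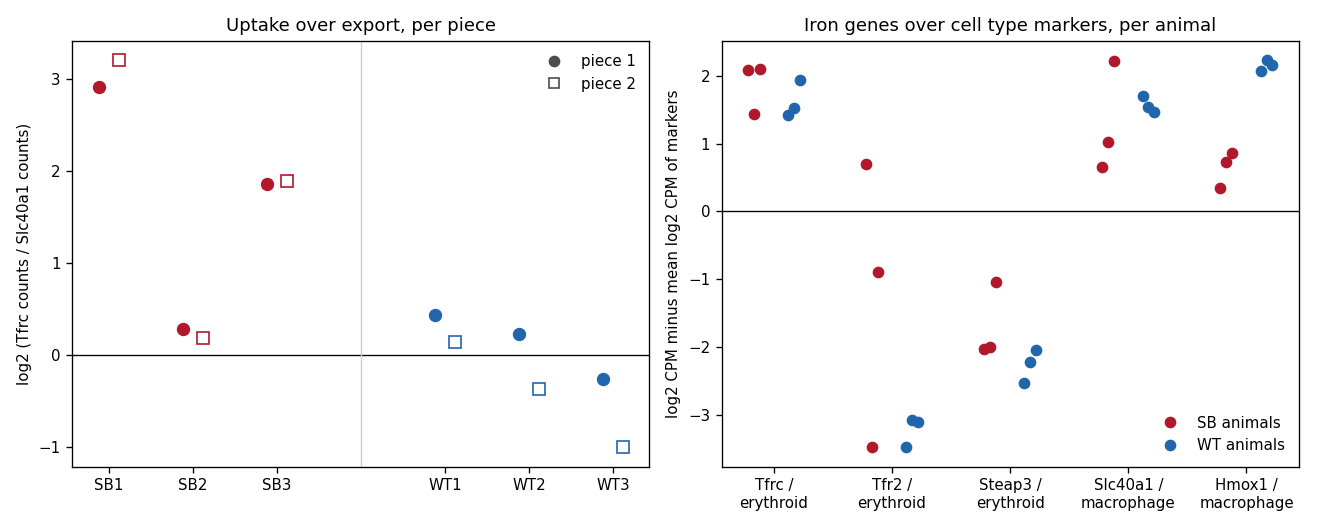
Left, log2 ratio of Tfrc to Slc40a1 counts in each piece (filled circles piece 1, open squares piece 2), SB animals left of WT animals. Right, log2 CPM of 5 iron genes minus the mean log2 CPM of erythroid or red pulp macrophage markers, a point per animal, SB left of WT for each gene. Hmox1 over macrophage markers is at most 0.87 in SB animals and at least 2.08 in WT animals, while Tfrc over erythroid markers overlaps. The gap for Hmox1 depends on which markers are averaged, and the share of all genes with such a gap was not counted.

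The pieces of a spleen were compared to see whether iron genes vary within the organ, with piece 2 (section B in controls) over piece 1 (section A) and the animal as a block. Within SB spleens 0 of 10 iron genes differed in edgeR, beside 0% of all genes (19.2% had an unadjusted p under 0.05, among them Ftl1), and limma-voom called 0 of the 10. Within WT spleens 8 of 10 were higher in piece 2, beside 7.66% of all genes in either direction, 5.02% higher and 2.64% lower. The increases were Tfr2 at 1.03 (SE 0.20), Slc40a1 at 0.95 (SE 0.17), Steap3 at 0.91 (SE 0.18), Hmox1 at 0.89 (SE 0.15), Ftl1 at 0.71 (SE 0.17), Slc11a1 at 0.67 (SE 0.14), Slc25a37 at 0.60 (SE 0.11) and Tfrc at 0.40 (SE 0.11) on the log2 scale, with edgeR adjusted p from 0.0112 to 0.0476. Slc11a2 (0.19, SE 0.10) and Fth1 (-0.02, SE 0.07) did not pass. Uptake and recycling genes were thus higher in the same WT pieces.

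Markers of both cell types moved the same way in WT spleens, where 17 of 22 erythroid markers were higher in piece 2, and 14 of 18 red pulp macrophage markers were higher and 1 lower. Their summed levels, dominated by a few abundant genes, were 61185, 61944 and 35833 CPM in piece 2 and 45749, 23260.5 and 16869.8 CPM in piece 1 of WT animals 1, 2 and 3 for the erythroid list. Without globins the erythroid list gave 4798, 4516 and 2425 CPM in piece 2 and 3729, 1447 and 845 CPM in piece 1. For the macrophage list they were 2921, 3450.0 and 3700.1 CPM in piece 2 and 3037, 3265 and 3338 CPM in piece 1. Their part in the result was not tested. The count of 8 became 0 without WT animal 2 or without WT animal 3, where 0% of all genes passed. It was 3 without SB animal 1, beside 19.4% of all genes.

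The change between pieces differed between genotypes for 1 of 10 iron genes, Slc25a37, beside 1.33% of all genes. It was -0.14 (SE 0.11) in SB and 0.60 (SE 0.11) in WT spleens, a difference of -0.74 (SE 0.15, edgeR adjusted p = 0.0477). Slc40a1 at -1.22 (SE 0.24, edgeR adjusted p = 0.0519) lay just outside the threshold. The Slc25a37 call was lost on leaving out SB animal 1, 2 or 3 or WT animal 2 or 3 (edgeR adjusted p from 0.0628 to 0.229). Of all genes 0% passed this test without SB animal 3, WT animal 2 or WT animal 3. Of the other 9 genes 8 had a negative difference, and the exception was Fth1 at 0.15.

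**Figure D4:**
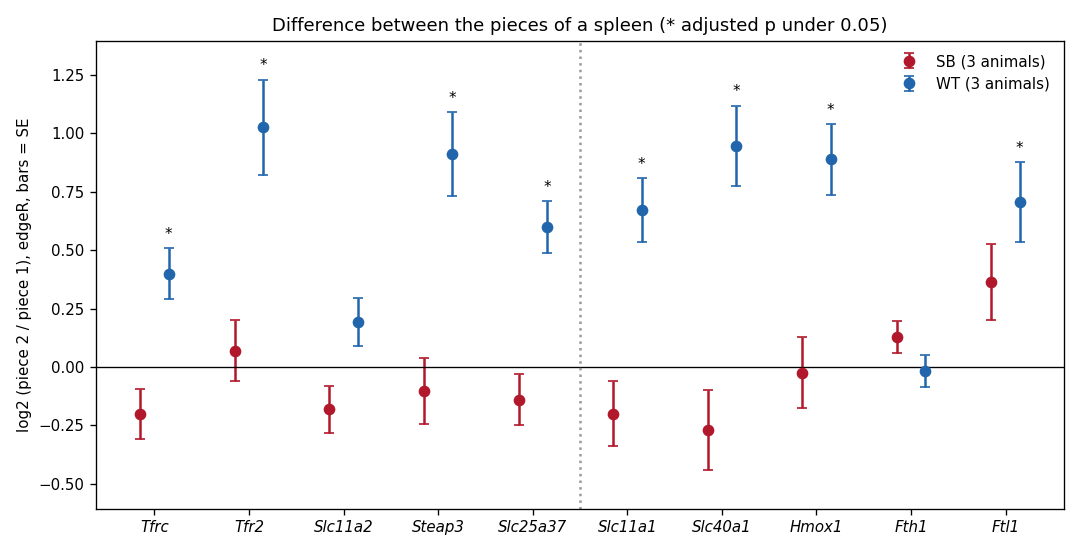
Points give the log2 ratio of piece 2 to piece 1 from edgeR with the animal as a block, in SB (left of each pair) and WT spleens (right), with bars for the SE and a star for adjusted p under 0.05. In WT spleens 8 of 10 iron genes carry a star, and in SB spleens 0 of 10.

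Each gene was also set beside 11175 genes by the root-mean-square difference of centred log2 CPM over the 12 pieces, which describes likeness in these 6 animals only. The nearest to Tfrc was Abcb10, a mitochondrial transporter of erythroid cells, at 0.16, then Gpsm2 (0.17) and Esco2 (0.18), genes of cell division. Steap3 was nearest to Aqp1, a water channel of red cells, at 0.18, then Klf1, a red cell transcription factor (0.23), and Abcb4 (0.25). Tfr2, which varied most of the 10, was nearest to Mfsd2b (0.40), Sdsl (0.44) and Map3k6 (0.46). Slc25a37 was nearest to F5 (0.25), Hebp1 (0.27) and Snx22 (0.28), and Slc11a2 to Arhgef12 (0.17), Mier3 (0.21) and Fbxo10 (0.22).

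Slc11a1 had the closest match of all 10, the myeloid lectin Clec4a1 at 0.10, followed by Clec4n (0.18) and Clec4a2 (0.27), which are of the same family. Slc40a1 was nearest to Pilrb2 (0.24) and Pilra (0.25), and Hmox1 to Trpm2 (0.25), Zfp658 (0.29) and Gas6 (0.30). Fth1 was nearest to Ppp1r21 (0.11), Renbp (0.12) and Slc12a9 (0.14), and Ftl1 to Plk3 (0.15), Naip5 (0.16) and Eva1b (0.22). Within the 10 genes, Tfrc and Steap3 (0.41), Fth1 and Ftl1 (0.47) and Slc11a1 and Slc40a1 (0.49) were each other's nearest. Slc25a37 was nearer to Fth1 (0.56) than to any uptake gene.

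The 4 further lists of iron genes held 58 tested genes, of which 8 rose and 3 fell, or 19.0% beside 17.1% of all genes, with a median log2 difference of 0.64 against 0.11 over all genes. Without SB animal 2 the lists, in the order below, held 2, 4, 3 and 5 higher and 3, 4, 2 and 1 lower genes, beside 34.4% of all genes. Among 15 genes of iron entry and transport 2 rose, Slc39a8, a metal importer (2.28, SE 0.34, edgeR adjusted p = 0.0121), and Exoc6, a vesicle tethering factor needed for transferrin cycling (0.87, SE 0.14). In the same list 2 fell, Cybrd1, a ferrireductase (-4.02, SE 0.57), and Steap4, a metalloreductase (-2.86, SE 0.65). Cybrd1 stood at 0.144 to 1.47 CPM in SB pieces and 6.54 to 15.3 CPM in WT pieces, with no overlap.

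Among 11 genes of iron sensing and hormonal control, Erfe, the hormone of erythroblasts that lowers hepcidin, rose by 6.40 (SE 1.27, edgeR adjusted p = 0.0251), and Ncoa4, the receptor that delivers ferritin to the lysosome, rose by 1.54 (SE 0.27). Epas1, the hypoxia factor HIF-2 alpha, fell by 1.02 (SE 0.19). Ireb2, one of the iron regulatory proteins, stood at 105 to 142 CPM in SB and 120 to 139 CPM in WT pieces and did not pass (edgeR adjusted p = 0.650). Hepcidin itself, Hamp, was near 0 in both genotypes and was not tested. Among 17 genes of iron export and heme recycling 3 rose, Hp, which encodes haptoglobin (2.88, SE 0.41), Abcg2, an exporter of porphyrins (2.69, SE 0.53), and Nfe2l2, the stress factor NRF2 (0.79, SE 0.15). The last list held 15 genes of mitochondrial iron and iron-sulfur assembly. Over the 4 lists 19 of 58 genes had no overlap between SB and WT pieces, 32.8% beside 29.6% of all genes.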

How the data were processed

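The deposited table holds read counts per Ensembl gene for 12 libraries. The values are whole and sum to different totals, so they were read as raw counts. STAR 2.5.3a and limma and the builds mm10 and GRCm38 appear in the submitters' processing notes; the counting mode is not given in the sources used here. Identifiers were matched to GENCODE M21, 32026 of 32121. Counts of both pieces were summed per animal and SB compared with WT animals in edgeR 4.0.16 under R 4.3.3, with TMM factors, filterByExpr, the default quasi-likelihood fit of this version with robust estimation, two-sided tests and Benjamini-Hochberg adjustment over all genes. SE were derived from F. Pieces were tested with an animal block over all 12 libraries; they pair because their titles name the same animal. No label pairs SB with WT animals. Nothing says that animals are littermates or were handled together. The marker ratios and likeness add 0.5 CPM before the log. Likeness used genes averaging 5 CPM or more. The scripts were tested on simulated data.

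The 10 genes, the 16 other lists and the tests were chosen with earlier results of these data known. The text names all 10 genes, up to 4 called genes per direction of each iron list by smallest adjusted p, the 3 most alike genes for each of the 10, and the first members of marker lists; Xist, Ireb2 and Hamp were added as context. Some genes that this rule picks are not reported here. Erythroid sums without globins were added after seeing the data. Alternatives were other size factors, DESeq2 1.42.0, limma-voom 3.58.1, no filter, other library sizes, single pieces, no block and leaving out each animal. A further one, edgeR's bias-adjusted quasi-likelihood fit, was added after seeing the data, when an earlier count of calls was found to rest on it.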

Additional observations from a re-analysis of the deposited data

Results flagged for a closer look

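Slc25a37, the mitochondrial iron carrier, changed differently between pieces in SB and WT spleens. The difference of the log2 ratio of piece 2 to piece 1 was -0.74 (edgeR adjusted p = 0.0477), from an interaction test over all genes. The ratio was negative in all 3 SB animals and positive in all 3 WT animals. In the same WT pieces 17 of 22 erythroid markers were higher in piece 2, and their part in this result was not tested.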

How the results depend on the processing

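The genotype count of 2 iron genes was 1 with no filter on low counts and 1 from piece 2 only, 3 from piece 1 only, 3 with DESeq2 and 3 with edgeR's bias-adjusted quasi-likelihood fit, which was chosen after seeing the data and adds Steap3. In that order, the fits called 6.96%, 14%, 17.5%, 32.5% and 18.3% of all genes. The genotype count ran from 0 to 4 on leaving out each animal, beside 1.4% to 34.4% of all genes. It was 0 in each fit that left out a WT animal, where 1.4% to 2.22% of all genes passed. Under limma-voom the log2 difference turned to -0.26 for Slc25a37, -1.13 for Hmox1 and -0.093 for Fth1, and from piece 2 only to -0.25 for Hmox1; the cause was not tested. Without SB replicate 2 it turned to -1.39 for Slc25a37, -0.83 for Slc11a1, -0.52 for Slc40a1, -2.26 for Hmox1, -0.77 for Fth1 and -0.27 for Ftl1, since these genes were highest in that animal. Leaving out each animal in turn, their highest values were 0.98 for Slc25a37, 2.66 for Slc11a1, 1.70 for Slc40a1, 0.66 for Hmox1, 0.57 for Fth1 and 0.60 for Ftl1. The WT piece count of 8 was 0 with no replicate block, where 0% of all genes passed. It was 0 to 7 on leaving out each animal, beside 0% to 19.4% of all genes. The SB piece count of 0 was 1 with no filter, beside 4.22% of all genes. The count of 1 for the difference between genotypes was 0 with no replicate block, 2 with limma-voom, 7 with no filter and 0 to 7 on leaving out each animal. In that order, the shares of all genes called were 0%, 1.25%, 3.79% and 0% to 3.07%. The 10 genes that differed between SB animals were 6 without SB replicate 2, beside 45.6% of all genes. They were 6 to 10 over the fits with an SB animal left out, beside 45.6% to 55.8% of all genes. The log2 difference of the Tfrc to Slc40a1 ratio was 1.25 to 2.65 over fits with an animal left out, an alternative added after seeing the data. With 3 animals a group, of unequal sex, the calls rest on few values, and Ftl1 is limited by its counts.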

Other observations

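Some iron genes outside the 10 were high in a single SB animal, and these were chosen after their values were seen. Scara5, a receptor for ferritin, stood at 439 and 423 CPM in the pieces of SB animal 1, 1.73 to 3.54 CPM in SB animals 2 and 3, and 0.749 to 4.89 CPM in WT pieces. It did not pass the genotype test (log2 difference 5.77, SE 2.25, edgeR adjusted p = 0.132). Trf, which encodes transferrin, stood at 152 and 144 CPM in SB animal 2, 3.83 to 8.10 CPM in SB animals 1 and 3, and 11.2 to 14.4 CPM in WT pieces. Cp, the ferroxidase ceruloplasmin, stood at 424 and 418 CPM in SB animal 2, 14.4 to 80.6 CPM in SB animals 1 and 3, and 47.6 to 73.6 CPM in WT pieces. Hfe, a regulator of hepcidin, stood at 190 and 177 CPM in SB animal 2, 17.2 to 31.1 CPM in SB animals 1 and 3, and 22.6 to 39.2 CPM in WT pieces. Neither Trf, Cp nor Hfe passed the genotype test.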
